A study of Mus musculus with 8 samples.

Results

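Gamma-delta T cells were taken from single-cell RNA libraries of mouse lung adenocarcinomas by the transcripts of each cell, and 415 of 24838 kept cells met the rule. UMIs (unique molecular identifiers) each stand for 1 captured transcript, and cells were kept from 500 UMIs and 250 detected genes upward, with mitochondrial UMIs making up no more than 15%. A member had a UMI of at least 1 of Cd3d, Cd3e and Cd3g, a UMI of Trdc, and UMIs of at least 2 of the 7 genes Tcrg-C1, Cd163l1, Cxcr6, Actn2, Krt83, Tcrg-C2 and Blk. It had none of Cd4, Cd8a, Cd8b1, Foxp3, Cd79a or Ncr1, and at most 2 UMIs of C1qa, C1qb and C1qc together. The cells were thus chosen by the measured UMIs of these 20 genes. Their levels are description and carry no test against other cell types.

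Gamma-delta T cells carry a T cell receptor of a gamma and a delta chain, and many populate tissues such as lung and skin from early life. They are commonly divided into cells that make interleukin-17, which depend on the transcription factors c-Maf (Maf) and Sox13 and respond to interleukin-23 and interleukin-1, and cells that make interferon-gamma, which depend on T-bet (Tbx21) and often carry CD27. In mouse lung tumours, interleukin-17 producing cells with the Vgamma6 chain are known as a source of signals that draw neutrophils and support tumour growth.

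The tumours came from KPC mice infected through the trachea with lentivirus and were the largest found 16 weeks after initiation. Every tumour carried CRISPR activation restricted to tumour cells, with guides (dRNA) aimed at Malat1, a nuclear long noncoding RNA, in the group labelled mA1, and at Tomato in the group labelled Con. The sources used here do not give the mice's age, sex or strain, or the promoter behind the activator. Tissue was digested with Collagenase IV and DNase and depleted of dead cells. Each of 4 libraries (2 per group) held 2 hashtags, whose cells are called a tumour here, giving 4 tumours per group. Nothing in the labels ties a hashtag to an animal, and the spread that the p-values rest on may be technical.

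The 4 libraries held 48319272 to 74996867 gene UMIs and 3898 to 7735 kept cells, of which 86.1% to 90.7% carried exactly 1 hashtag. Con library 2 stood apart: its gamma-delta T cells held 1904 and 1803 CPM of Xist in its 2 tumours and no Ddx3y (CPM, UMIs of a gene per 1000000 UMIs of a tumour's summed cells), while the other 6 tumours held 0 to 9.39 of Xist and 37.6 to 94.8 of Ddx3y. Xist is known from female cells and Ddx3y lies on the Y chromosome, so a difference in sex and this library cannot be told apart in the results below. Kept barcodes shared between pairs of libraries numbered 89 to 269, and 0 of the gamma-delta barcodes were shared. The members came to 131 cells in Con library 1, 69 in Con library 2, 165 in mA1 library 1 and 50 in mA1 library 2. The median member held 3488 UMIs and 1435 genes, and the sums per tumour held 93742 to 345949 UMIs.

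Most markers of the label were also genes of the rule, which fixed much of their detection. Besides Trdc, the delta chain constant gene, which every member had by the rule, UMIs of Tcrg-C1, a gamma chain constant gene, were found in 335 cells (80.7%). Cd163l1, the scavenger receptor SCART1 of interleukin-17 producing gamma-delta cells, was found in 275 cells (66.3%), Cxcr6, a chemokine receptor of tissue T cells, in 367 (88.4%) and Blk, a Src family kinase, in 226 (54.5%). Blk is also a B cell gene. Tcrg-C4, a gamma constant gene and a marker the rule did not use, was found in 187 cells (45.1%), against 0.103% of B cells in the same libraries. The gamma constant genes are close copies of each other, so reads may be split among them in ways the counts do not show.

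Some transcripts known from other lineages were absent and others were present. Klra8, Klra4 and Ms4a1 had 0 UMIs among the 8 tumours. Other markers of those lineages were present at low levels. Of 6 NK markers 3 were detected, summing to 0 to 76.2 CPM per tumour. Of 5 B cell markers 2 were detected, summing to 26.4 to 90.5 CPM. Ncr1 and Cd79a of these lists were absent by the rule. Trbc1 and Trbc2, the beta chain constant genes, were found in 220 (53.0%) and 312 cells (75.2%), and Trac, the alpha chain constant gene, in 85 cells (20.5%), against 0.790%, 1.48% and 1.03% of B cells. Of the cells with a Trdv4 UMI, 19.9% also had one of Trac, and of the cells without, 20.9%. The sum of 8 macrophage markers ranged from 171 to 8446 CPM and was highest in mA1 tumour 3, at 5529 in Con tumour 2 and 4255 in mA1 tumour 2. Neutrophil markers reached 3985 and red blood cell genes 4334 in Con tumour 1, with at most 51.5 and 184 in any other tumour. Epithelial markers reached 2362 in Con tumour 2 and at most 364 elsewhere. The part these transcripts play in the results below was not tested.

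How many of the 7 genes a cell showed marked a change of programme close to the edge of the rule. Of the members, 53 (12.8%) had 2 of the 7 genes, 66 had 3, 94 had 4, 103 had 5, 65 had 6 and 34 had all 7. A further 58 cells that met every other condition had 0 of the 7 and 53 had 1. With each cell thinned at random to 1000 UMIs, the 31 genes of a type 17 list summed to a mean of 2.18 and 3.15 UMIs in the cells with 0 and 1 of the 7 genes, 5.92 in those with 2, 11.2 in those with 3 and 15.8 in those with 7. A list of 22 interferon-gamma and cytotoxic genes ran the other way, with 12, 13.1 and 6.27 UMIs at 0, 1 and 2 genes and 0.697 at 3. Nkg7, a granule protein of cytotoxic cells, was found in 38.6% and 58.5% of the thinned cells just outside the rule (0 and 1 genes), in 37.3% just inside it (2 genes) and in 3.03% at 3 genes. Con library 2 supplied 27 of the 58, 28 of the 53 and 18 of the 53 cells with 0, 1 and 2 genes, but 13 of the 66 with 3. The 7 genes are themselves genes of type 17 cells in part, so this order is set partly by the rule and is given with no test.

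**Figure D1:**
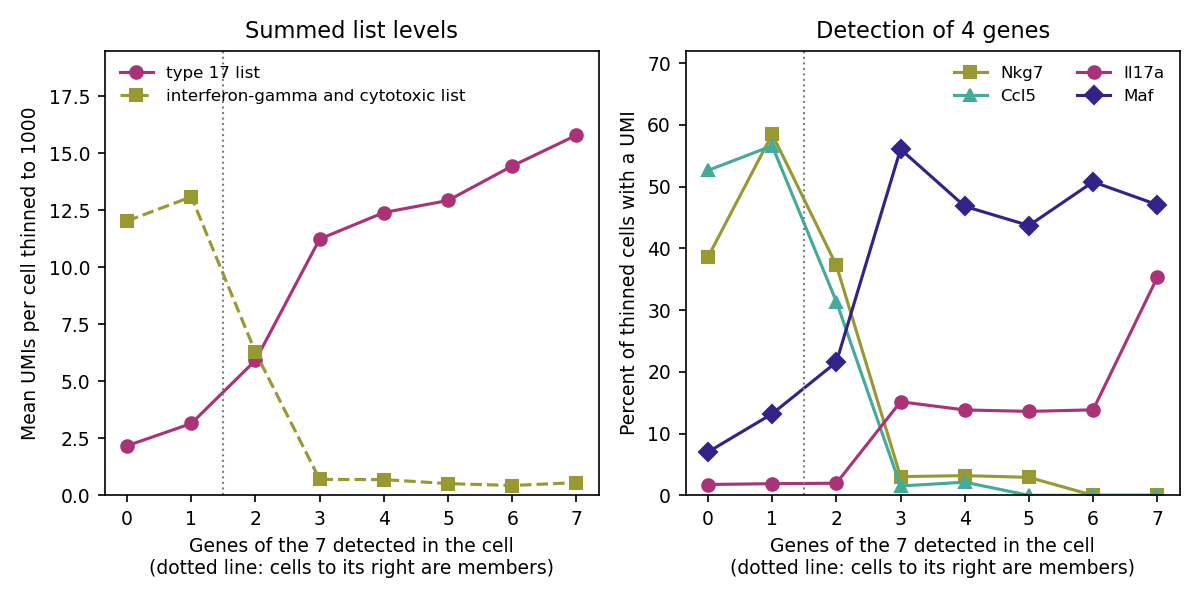
Cells that met every other condition of the rule, arranged by how many of the 7 genes they showed (x axis), with the mean UMIs of each list per cell thinned to 1000 UMIs (left) and the percent of thinned cells with a UMI of 4 genes (right). The type 17 list climbs from 2.18 to 15.8 UMIs and the interferon-gamma and cytotoxic list lies at 12 and 13.1 at 0 and 1 genes and at 0.697 at 3 genes, with members to the right of the dotted line.

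Few members showed several interferon or cytotoxic genes. At least 2 of Ifng, Tbx21, Eomes, Nkg7, Ccl5, Klrd1 and Gzma were found in 33 of the 415 cells (7.95%). This set of 7 was chosen after values had been seen. The 33 cells lay mostly at the edge of the rule, with 23 among the 53 cells that had 2 of the 7 genes and 10 among the 362 that had 3 or more. They made up 26.1% of the members in Con library 2, 12% in mA1 library 2, 4.85% in mA1 library 1 and 0.763% in Con library 1.

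Among regulators, Maf was found in 340 cells (81.9%), Rora in 245 (59.0%), Sox13 in 118 (28.4%) and Zbtb16, which encodes the innate T cell factor PLZF, in 90 (21.7%). In B cells the same genes were found in 5.22%, 3.98%, 0.275% and 0.172%, at a median of 2571 UMIs per cell. Among receptors, Il7r, the interleukin-7 receptor that maintains these cells, was found in 389 cells (93.7%), Icos in 187 (45.1%), Il1r1 in 148 (35.7%), Il23r in 101 (24.3%) and Ccr6 in 38 (9.16%). Ccr6 was found in 11.7% of B cells, which express it themselves. Pdcd1, which encodes the inhibitory receptor PD-1, was found in 173 members (41.7%) and in 0 of 2911 B cells.

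Il17a, the type 17 effector cytokine, was found in 94 cells (22.7%, 95% exact binomial interval 18.7% to 27.0%, for counting error only) and in 0 B cells. After thinning to 1000 UMIs, 14% of the members had a UMI. The 846 Il17a UMIs were unevenly spread: 29 of the 94 cells had 1 UMI, the median was 2.5, the highest cell had 109, and the 10 highest cells held 59.9% of all Il17a UMIs. Of those 10 cells, 1 came from a Con tumour. Related effectors were rarer, with Il17f in 13 cells (3.13%) and Il22 in 4 (0.964%). Cells with and without Il17a had similar depth, at medians of 3446 and 3514 UMIs.

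Other secreted factors fell into common and rare ones. Ltb, which encodes lymphotoxin beta, was found in 376 cells (90.6%, against 67.1% of B cells), Tgfb1 in 158 (38.1%, against 33.4%), Furin, a protease that processes TGF-beta, in 156 (37.6%, against 11.0%) and Tnf in 87 (21.0%, against 4.36%). The tissue repair factor Areg was found in 18 cells (4.34%, against 2.68% of B cells), Csf2 in 17 (4.10%), Lif in 12 (2.89%) and Ifng in 12 (2.89%). Mki67, a gene of dividing cells, was found in 18 cells (4.34%), against 5.94% of B cells.

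Receptor variable genes were read in part of the cells, since the libraries start from the 3′ end of transcripts. Any gamma variable gene was found in 246 cells (59.3%), any delta variable gene in 211 (50.8%), both in 139 and neither in 97. The leading ones were Trdv4 in 181 cells, Trgv2 in 163, Tcrg-V6 in 81, Tcrg-V4 in 33, Tcrg-V1 in 26 and Trdv5 in 19 cells. Trdv4 and Tcrg-V6 are the pair known from interleukin-17 producing cells of mucosal tissue, and they went together here: Trdv4 was found in 81.5% of the 81 cells with Tcrg-V6 and in 34.4% of the others, at medians of 3514 and 3477.5 UMIs. Cd163l1 was found in 87.7% of the Tcrg-V6 cells and 30.3% of the Tcrg-V4 cells.

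The gene 5830411N06Rik, which encodes the scavenger receptor SCART2, was the more frequent of the 2 in the Tcrg-V4 cells. It was found in 54.5% of the 33 cells with Tcrg-V4 and in 1.23% of the 81 cells with Tcrg-V6. The 2 scavenger receptor genes are neighbours on mouse chromosome 7 (GRCm38.p6), Cd163l1 at 140197218 to 140231145 and 5830411N06Rik at 140247279 to 140300734, with 16133 bases between them. Of the cells with Cd163l1, 8.36% had 5830411N06Rik, and of those without, 50.7%. The rule admits a cell more readily when it has Cd163l1, and its part in these shares was not tested.

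Splitting the members on these genes gave 188 cells with Tcrg-V6 or Trdv4 and no 5830411N06Rik (45.3%), 86 with 5830411N06Rik and neither receptor gene (20.7%), 8 with both and 133 with none. The split was made after values had been seen, so the differences are described with no test. The median depth was 3486.5 UMIs in the Tcrg-V6 or Trdv4 cells and 3520 in the 5830411N06Rik cells. The 5830411N06Rik cells numbered 6, 12, 7 and 2 in Con tumours 1 to 4 and 22, 13, 9 and 9 in mA1 tumours 1 to 4. The Tcrg-V6 or Trdv4 cells numbered 23, 43, 16 and 15 in Con and 40, 29, 5 and 12 in mA1 tumours. The direction in a single tumour can therefore rest on 1 cell or none. Pdcd1 was found in 55.3% of the former and 9.30% of the latter, with that direction in 7 of 8 tumours. Zbtb16 was found in 31.9% and 12.8% (8 of 8 tumours), Hbegf, an epidermal growth factor family ligand, in 18.6% and 2.33% (7 of 8), and Il1r1 in 46.8% and 27.9% (7 of 8). Cxcr3 was found in 22.3% and in 0 of 86 cells, which allows a share of up to 3.49% of cells with a UMI and sets no limit on cells expressing the gene. Without Con library 2 the Cxcr3 share in the Tcrg-V6 or Trdv4 cells was 14.6%.

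Klf2, Tcf7 and S1pr1, known from circulating or less differentiated T cells, were found more often in the 5830411N06Rik cells. Klf2, which drives exit from tissue, was found in 77.9% of them and 42.6% of the Tcrg-V6 or Trdv4 cells (7 of 8 tumours in that direction). Tcf7, which encodes the factor TCF-1 of less differentiated cells, was found in 54.7% and 27.7% (8 of 8), and S1pr1, the lymph exit receptor, in 38.4% and 17.6% (7 of 8). Itgae, which encodes the epithelial adhesion integrin CD103 and is not a gene of circulating cells, was also found more often in them, with 39.5% and 10.6% (7 of 8). So was Ccr6, with 26.7% and 4.26% (7 of 8). Other trafficking or residency genes differed less, with Ccr7 in 3.49% and 0.532%, Cd69 in 52.3% and 54.3% and Cxcr4 in 17.4% and 20.7%. Ahr was found in 15.1% and 23.4%. Trdv5 was found in 17.4% and in 0 of 188 cells, which allows up to 1.60% of cells with a UMI; most of the 188 were chosen for Trdv4, another delta variable gene, which bears on this share. Il17a was found in 26.1% of the Tcrg-V6 or Trdv4 cells and 16.3% of the 5830411N06Rik cells, with that direction in 6 of 8 tumours. Maf was found in 89.4% and 82.6%. Thinned to 1000 UMIs, the shares of the Tcrg-V6 or Trdv4 cells and the 5830411N06Rik cells were 27.3% and 4.71% for Pdcd1, 20.9% and 54.1% for Klf2, and 2.14% and 8.24% for Ccr6.

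**Figure D2:**
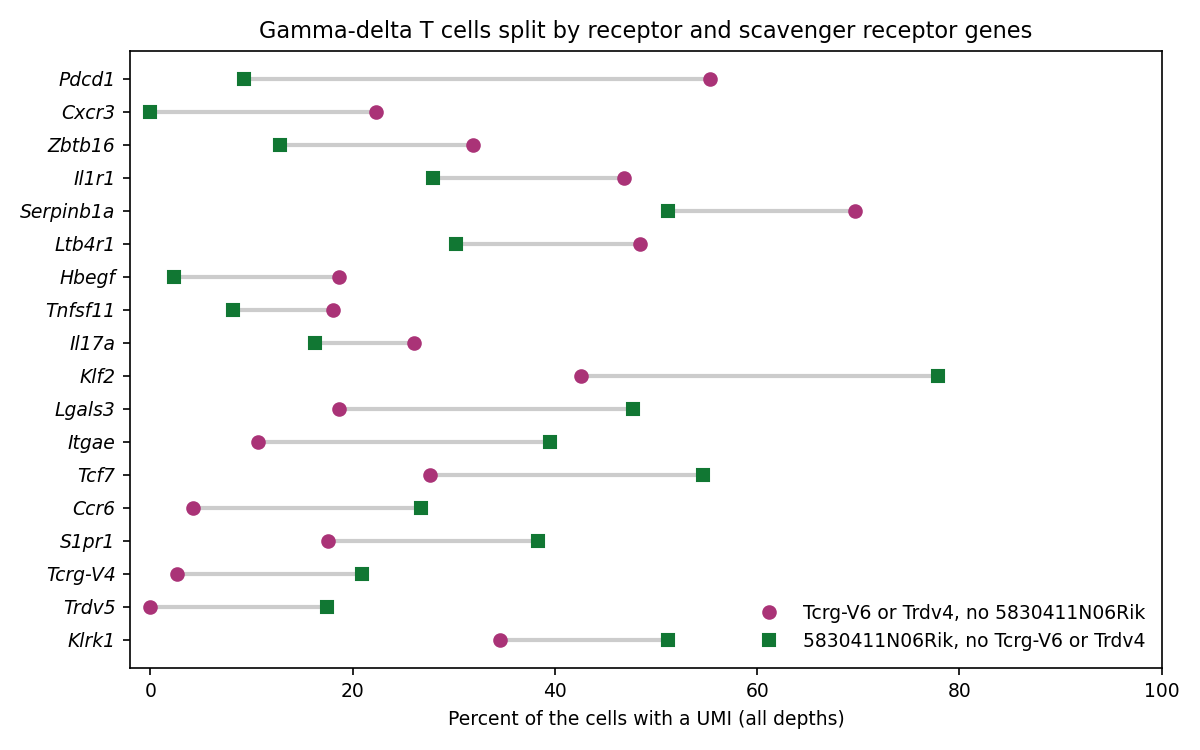
Percent of cells with a UMI (x axis, all depths) of 18 genes in the 188 cells with Tcrg-V6 or Trdv4 and no 5830411N06Rik (circles) and the 86 cells with 5830411N06Rik and neither of the others (squares). Pdcd1 lies at 55.3% and 9.30% and Klf2 at 42.6% and 77.9%.

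To place the members among the lymphocytes of the same tumours, their UMIs were summed per tumour and set against alpha-beta T cells (2640 cells with Cd4, Cd8a or Cd8b1, a Trac, Trbc1 or Trbc2 UMI and no Trdc) and against NK cells (1424 cells with Ncr1 and no CD3 gene). Each tumour gave 1 sum per gate, the tumour was a block, and edgeR's quasi-likelihood test was used with Benjamini-Hochberg adjustment over all genes tested. Genes used by a gate were left out of the tests. The low-count filter keeps genes that are high in 1 gate only. Such a gene can hardly be called in the other direction. The rule favours cells with Cd163l1, Actn2 and Krt83, so genes that go with those are selected in part. The gate was therefore also run without these 3 genes. That gate still asked for at least 2 of Tcrg-C1, Tcrg-C2, Blk and Cxcr6. Cells with 0 or 1 of the 7 genes, which had the highest means of the interferon-gamma and cytotoxic list, stayed outside it. It therefore cannot remove the selection. Both comparisons use the same gamma-delta sums, so their results are not independent.

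Against alpha-beta T cells, the members were higher in most type 17 genes tested, such as Sox13, Il23r and Il1r1, and lower in genes such as Ccr7, Lef1 and Cd27. At an adjusted p under 0.05, 528 of 4833 genes tested (10.9%) were higher in gamma-delta T cells and 491 (10.2%) were lower. Of the 31 listed type 17 genes, 27 were tested, 23 were higher, 0 were lower and the median log2 fold change was 2.42, against 0.00 over all genes tested. Some of these genes passed the low-count filter through the gamma-delta sums, such as Sox13 with 133 UMIs against 1. Zbtb16, Il23r, Il1r1 and 5830411N06Rik were also low in alpha-beta T cells. Tnfrsf4, with 1 gamma-delta UMI against 612, passed through the alpha-beta sums. For such genes the direction was set by the filter. The gate without Cd163l1, Actn2 and Krt83 gave 531 higher and 467 lower genes, counts over all genes that do not show how far the rule sets the type 17 result. Levels are CPM of the gate's sum and are given as the lowest, median and highest tumour.

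Among the list's transcription factors, Sox13, Zbtb16, Rora and Maf were higher, and Batf and Stat3 were not called. Sox13 was 53.3, 89.0 and 103 in gamma-delta T cells and 0 to 0.536 in alpha-beta T cells, with 133 UMIs against 1, a ratio of 1070 (95% counting interval 189 to 42582). Zbtb16 was 52.8, 75.5 and 114 against 0, 2.03 and 6.75, a log2 fold change of 4.48 ± 0.294 (SE; edgeR adjusted p = 1.86e-12). Maf was 395, 607 and 983 against 91.4, 147 and 176, with a log2 fold change of 1.82 ± 0.204 (adjusted p = 0.000120). For Sox13, Zbtb16 and Maf every tumour was higher in the gamma-delta sum and the ranges of the gates did not overlap.

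Of the type 17 list's receptors, Il23r and Il1r1 were higher by a wide margin. Il23r was 53.3, 82.2 and 109 in gamma-delta T cells against 1.83, 3.86 and 5.59, a log2 fold change of 4.24 ± 0.240 (edgeR adjusted p = 7.33e-14). Il1r1 was 85.3, 126 and 178 against 3.76, 6.61 and 12.8, a log2 fold change of 3.97 ± 0.209 (adjusted p = 1.37e-14). Both receptors were higher in 8 of 8 tumours without overlap. Il7r was higher by a smaller margin, at 971, 1317 and 1495 against 576, 641 and 730, a log2 fold change of 0.78 ± 0.0869 (adjusted p = 6.05e-08). Tmem176b, an ion channel gene of type 17 lymphocytes, differed by 2.54, the chemokine receptor gene Ccr2 by 2.40, Icos by 0.65 and Cd44 by 0.98 on the log2 scale, all called.

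Il17a varied widely between tumours. Its level was 10.7, 320 and 1035 in gamma-delta T cells and 18.9, 34.4 and 162 in alpha-beta T cells, which overlap, with 7 of 8 tumours higher in gamma-delta T cells. The log2 fold change was 2.76 ± 0.628 (edgeR adjusted p = 0.0173). The low tumours were both of Con library 2, with 28.6 in Con tumour 3 and 10.7 in Con tumour 4. Ccr6, Lgals3, Batf and Stat3 of the type 17 list were tested and not called, and Il17f, Il22, Sox4 and Irf4 were too low to be tested.

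Promoter sequence is shown for 3 genes that carry this pattern: the effector Il17a, the receptor gene Il23r, and the scavenger receptor gene 5830411N06Rik on which the members were split. The windows run from 250 bases before to 50 after the start site in RefSeq (GRCm38.p6) and are written 5′ to 3′ in the direction of the gene. They lie at chr1:20730655-20730954 (plus strand), chr6:67491806-67492105 (minus) and chr7:140247051-140247350 (plus, the first of 3 windows listed for the gene). Capitals mark AGGTCA or its reverse complement TGACCT, the core letters of a site bound by many nuclear receptors.
Il17a: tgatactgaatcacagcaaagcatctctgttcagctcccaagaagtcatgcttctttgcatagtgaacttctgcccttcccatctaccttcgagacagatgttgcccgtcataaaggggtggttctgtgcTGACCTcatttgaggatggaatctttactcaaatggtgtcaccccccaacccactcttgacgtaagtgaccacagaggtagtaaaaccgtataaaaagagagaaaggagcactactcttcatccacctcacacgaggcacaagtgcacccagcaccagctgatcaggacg
Il23r: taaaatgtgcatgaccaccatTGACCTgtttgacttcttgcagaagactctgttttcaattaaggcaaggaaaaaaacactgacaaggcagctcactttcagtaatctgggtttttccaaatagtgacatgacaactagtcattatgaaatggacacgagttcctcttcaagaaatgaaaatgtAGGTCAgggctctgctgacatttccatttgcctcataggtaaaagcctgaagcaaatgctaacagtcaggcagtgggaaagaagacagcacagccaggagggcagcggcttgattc
5830411N06Rik: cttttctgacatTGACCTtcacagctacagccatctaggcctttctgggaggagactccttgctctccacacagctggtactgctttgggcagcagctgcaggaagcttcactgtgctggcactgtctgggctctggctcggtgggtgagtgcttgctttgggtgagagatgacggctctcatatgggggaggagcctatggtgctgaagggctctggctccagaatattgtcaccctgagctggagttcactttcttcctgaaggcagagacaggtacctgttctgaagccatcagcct
Il17a had 1 match, 120 bases before the start site, Il23r had 2, at 229 and 66 bases before it, and 5830411N06Rik had 1, at 238 bases before it. Windows of Il17f and Cd163l1 were also scanned and are not shown: Il17f had 1 match and Cd163l1 had 0. Both of these windows lie inside the spans annotated for their genes. Of 32851 promoter windows in the table, 5340 (16.26%) held a match on either strand. A match is a description of these letters only and says nothing of binding.

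The 12 named genes with the largest increases included receptor and adhesion genes. Trdv4 was 209, 282 and 331 against 0 to 1.83, with 431 UMIs against 2, a ratio of 1734 (95% counting interval 477 to 14364). It is a delta variable gene, and the gates asked for Trdc in members and for none in alpha-beta T cells. The Trdv4 difference was thus largely set by the gates and stands as description. Tcrg-C4 was 171, 206 and 250 against 0.962, 3.39 and 13.1, a log2 fold change of 5.52 ± 0.267. The rule uses its close copies Tcrg-C1 and Tcrg-C2, so the Tcrg-C4 difference was also set in part by the rule. 5830411N06Rik was 32.0, 137 and 320 against 0, 2.82 and 5.43, a log2 fold change of 5.20 ± 0.258. Others were Cryba4, a lens crystallin gene, Abi3bp, a matrix binding protein gene, and Pde5a, a cyclic GMP phosphodiesterase gene, at log2 fold changes of 3.79 to 5.93. Also among the 12 were Sox13, Zbtb16, Il23r, Il1r1 and the potassium channel gene Kcnk1, the last at 4.79.

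Checkpoint and costimulatory receptors split by gene. Of 11 tested, 4 were higher (Pdcd1, Tox, Il2ra and Tnfrsf25) and 5 were lower (Tnfrsf4, Tnfrsf18, Cd5, Cd6 and Cd28). Pdcd1 was 160, 234 and 383 against 9.62, 23.1 and 31.7, without overlap, a log2 fold change of 3.34 ± 0.157 (edgeR adjusted p = 1.70e-15). Tnfrsf4, which encodes the costimulatory receptor OX40, was 0, 0 and 2.89 against 28.8, 51.7 and 78.8, with 1 UMI in gamma-delta T cells, and was lower by a ratio of 76.1 (95% counting interval 13.6 to 3009). Cd5, a receptor whose level tracks receptor signal strength, was 0, 24.6 and 85.7 against 131, 168 and 199, and it fell by 2.64 on the log2 scale. Against CD8 cells alone the median of this list was 0.89, against -0.39 in the comparison with all alpha-beta T cells.

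Of 13 tested residency and trafficking genes, 6 were lower, among them genes of circulating T cells. Ccr7, the lymph node homing receptor, was 0, 9.46 and 64.0 against 110, 147 and 201, without overlap, a log2 fold change of -3.79 ± 0.385 (edgeR adjusted p = 1.88e-05). Lef1 fell by 3.22, S1pr1 by 1.51, Tcf7 by 1.34 and Klf2 by 0.70 on the log2 scale. Higher were Itgae (1.34), the environmental sensor gene Ahr (0.95) and the integrin gene Itgb7 (0.83). The list's median was -0.32. The other large decreases were Dapl1, Slamf6, Trat1, Il6ra, BE692007, Themis, Rflnb, Slfn1 and Gm8369, with Trat1 and Themis known from alpha-beta receptor signalling and selection.

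Interferon-gamma and cytotoxic genes were lower where called. Of 22 listed, 11 were tested, 0 were higher and 5 were lower (Gzma, Ccl5, Cd27, Ccl3 and Klrd1), with a median of -1.98. Cd27 was 3.79, 20.4 and 52.4 against 87.5, 108 and 122, without overlap, and fell by 2.45 on the log2 scale. Ccl5 was 11.0, 385 and 2219 against 2168, 2704 and 3821, with an overlap through Con library 2, and fell by 2.52 (edgeR adjusted p = 0.0402). Gzma fell by 3.68 (adjusted p = 0.00764). Gzma and Cd27, with 18 and 34 UMIs over all members, passed the low-count filter through the alpha-beta sums, which set their direction. Against CD4 cells alone the list's median turned to 0.54.

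Of 9 secreted factors tested, Ltb (log2 fold change 0.37), Furin (0.63) and Hbegf were higher and Tnfsf8 was lower by 1.76. Of 12 metabolism genes Aldoa and Odc1, which encodes the first enzyme of polyamine synthesis, were higher and 0 were lower (median 0.26). Of 11 cell cycle genes Tubb5 was lower and 0 were higher (median -0.47). Among all genes tested 10.9% were higher and 10.2% lower, so counts this small do not set the metabolism or cell cycle list apart. Of 10 interferon response genes 3 were lower and 0 higher (median -0.34), and Ifi27l2a fell by 3.50. Of 19 dissociation and immediate early genes Fos, Fosb, Jun, Dusp1 and Hspa1b were higher and 0 were lower (median 0.29).

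These counts lean on the scaling. With library totals in place of TMM, all genes moved up by a median of 0.21 on the log2 scale, and 77.8% of the calls were higher in gamma-delta T cells (1046 higher, 299 lower), against 51.8% with TMM. The type 17 list gave 23 higher and 0 lower genes under both, and cell cycle genes 0 higher and 1 lower under both. With library totals the genes higher numbered 11 in place of 5 for dissociation, 5 in place of 2 for metabolism, 5 in place of 3 for secreted factors, 4 in place of 3 for residency and 2 in place of 0 for interferon-gamma and cytotoxic genes. The genes lower numbered 4 in place of 5 for activation receptors and 2 in place of 3 for interferon response. Ribosomal protein genes took 27.5% ± 1.55 (SD, n = 8 tumours) of UMIs in gamma-delta T cells and 36.3% ± 2.28 in alpha-beta T cells, lower in 8 of 8 tumours. Of 84 ribosomal protein genes tested, 79 were lower and 2 higher in gamma-delta T cells, with a median of -0.59.

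**Figure D3:**
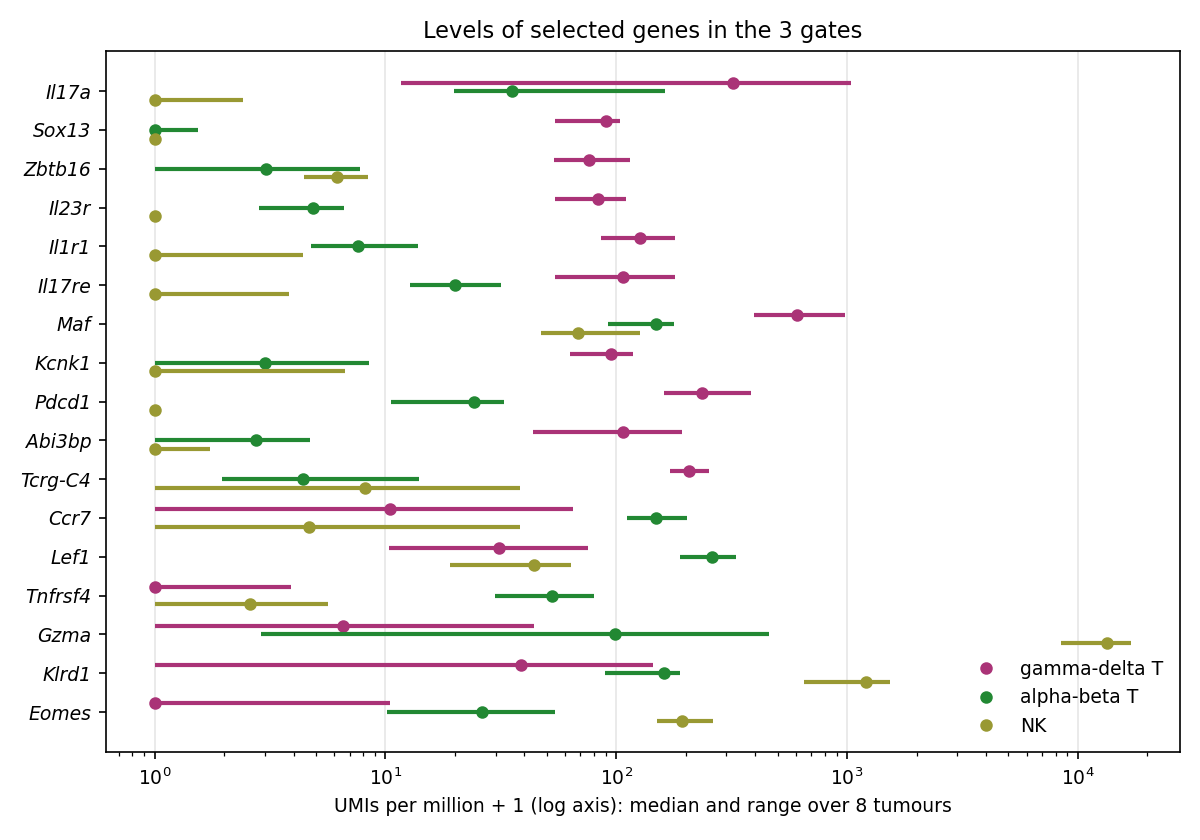
CPM plus 1 (x axis, log scale) of 17 genes in gamma-delta T, alpha-beta T and NK cells, as the median (point) and range (line) over 8 tumours. Pdcd1 lies at a median of 234, 23.1 and 0 CPM in the 3 gates and Gzma at 5.58, 98.0 and 13332.

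Against NK cells, the medians of the type 17 and cytotoxic lists lay further apart, over partly different genes tested. At an adjusted p under 0.05 by edgeR, 676 of 3767 genes tested (17.9%) were higher in gamma-delta T cells and 578 (15.3%) were lower. Of 23 type 17 genes tested, 21 were higher and 0 lower, with a median of 4.81, and Lgals3 and Stat3 were not called. Of 21 interferon-gamma and cytotoxic genes tested, 20 were lower and 0 higher, with a median of -4.60, and Cd27 was not called. Several of these genes passed the low-count filter through the NK sums, such as Eomes, Il12rb2 and Cd244a with 2, 3 and 3 gamma-delta UMIs. Gzma and Prf1 did too, with 18 and 14 UMIs over all members. Il23r and Sox13, with 0 NK UMIs, passed through the gamma-delta sums. For such genes the direction was set by the filter.

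Several genes had no UMI in NK cells, so their fold is a bound set by 3 UMIs over the gate. Pdcd1 was at least 364-fold higher in gamma-delta T cells, Trgv2 at least 248-fold, 5830411N06Rik at least 198-fold (not tested), Sox13 at least 121-fold and Il23r at least 119-fold. Il17a had 820 UMIs against 1 and was left out by the low-count filter. Other genes among the 12 largest increases were Il1r1, Il17re, the subunit of the interleukin-17C receptor, the leukotriene B4 receptor gene Ltb4r1, the glycerol channel gene Aqp3, Ly6g5b, Podnl1 and Abi3bp. Trdv4 was also found in NK cells, at 18.1, 41.6 and 97.5 CPM, which lay below every gamma-delta sum. The NK gate took no cell with a Trdc UMI, which bears on this level.

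The 12 named decreases included effector and receptor genes of NK cells. Gzma, which encodes granzyme A, was 0, 5.58 and 42.8 CPM in gamma-delta T cells and 8450, 13332 and 16968 in NK cells, a log2 fold change of -9.98 ± 0.316 (edgeR adjusted p = 7.26e-09). Prf1, which encodes perforin, was 0, 5.58 and 23.8 against 830, 1119 and 1502, a log2 fold change of -6.76 ± 0.216 (adjusted p = 1.48e-17). Neither gene's ranges overlapped, and the low-count filter set the direction of both. The Ly49 receptor genes Klra4, Klra8 and Klra9 had 0 UMIs in gamma-delta T cells and were at least 423-fold, 357-fold and 373-fold lower; they are close copies whose reads may be split. Eomes had 2 UMIs against 823, a ratio of 150 (95% counting interval 41.5 to 1244). The others were Klrb1a, Cma1, Klra7, Klra1, Klri2 and S1pr5.

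Other lists differed less from NK cells. Of 7 tested activation receptors 4 were higher and 0 lower (Pdcd1, Tox, Il2ra, Tnfrsf25; median 1.97). Of 5 secreted factors Ltb (log2 fold change 4.16), Tnf (3.08) and Furin (2.35) were higher. Of 9 metabolism genes 6 were higher (Ldha, Pkm, Pgk1, Aldoa, Hif1a and Odc1; median 0.54) and of 18 dissociation genes 10 were higher (median 0.50). Of 11 residency genes 5 were higher, among them Tcf7 (2.56) and Cd69 (1.29), and 4 lower, among them Klf2 (median 0.78). Of 6 cell cycle genes 2 were higher, and of 6 interferon response genes 3 were higher and 1 was lower. Among all genes tested 17.9% were higher and 15.3% lower, so the smaller of these counts do not set a list apart. With library totals in place of TMM, all genes moved by a median of -0.11, dissociation genes higher numbered 6 and cell cycle genes 1, and 40.9% of the calls were higher in gamma-delta T cells, against 53.9%. Ribosomal protein genes took 18.8% ± 1.24 of UMIs in NK cells, lower than in gamma-delta T cells in 8 of 8 tumours.

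The study's own comparison asked whether activation of Malat1 in tumour cells changes the cells around them. Malat1 itself, which the guides do not target in T cells, made up 2.14%, 2.54%, 2.72% and 2.59% of gamma-delta UMIs in Con tumours 1 to 4 and 1.99%, 2.13%, 2.55% and 2.74% in mA1 tumours 1 to 4 (2.50% ± 0.248 and 2.35% ± 0.350, SD, n = 4). The groups overlapped.

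Gamma-delta T cells made up 2.29%, 1.74%, 1.24% and 1.34% of kept cells in Con tumours 1 to 4 and 3.56%, 1.66%, 1.20% and 1.54% in mA1 tumours 1 to 4. The means were 1.65% ± 0.476 and 1.99% ± 1.06 (SD, n = 4), and the difference of 0.337 percentage points did not exceed the spread (exact two-sided permutation p = 0.714, where 70 arrangements allow no p below 0.0286). Of CD3-positive cells they made up 12.2%, 7.65%, 3.19% and 3.60% in Con and 15.1%, 8.21%, 5.14% and 6.28% in mA1 tumours, a difference of 2.03 percentage points (exact p = 0.486). In each group both tumours of library 1 were higher than both of library 2 in this second share. Both differences turned negative without mA1 tumour 1 (-0.186 and -0.106) and without Con library 2 (-0.0250 and -1.22). The rule took in 81.8%, 81.1%, 51.7% and 64.7% of the cells with Trdc and its other conditions in Con tumours 1 to 4, and 92.6%, 86.7%, 76.9% and 86.7% in mA1 tumours 1 to 4, so the shares count type 17 marked cells more fully than others.

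**Figure D4:**
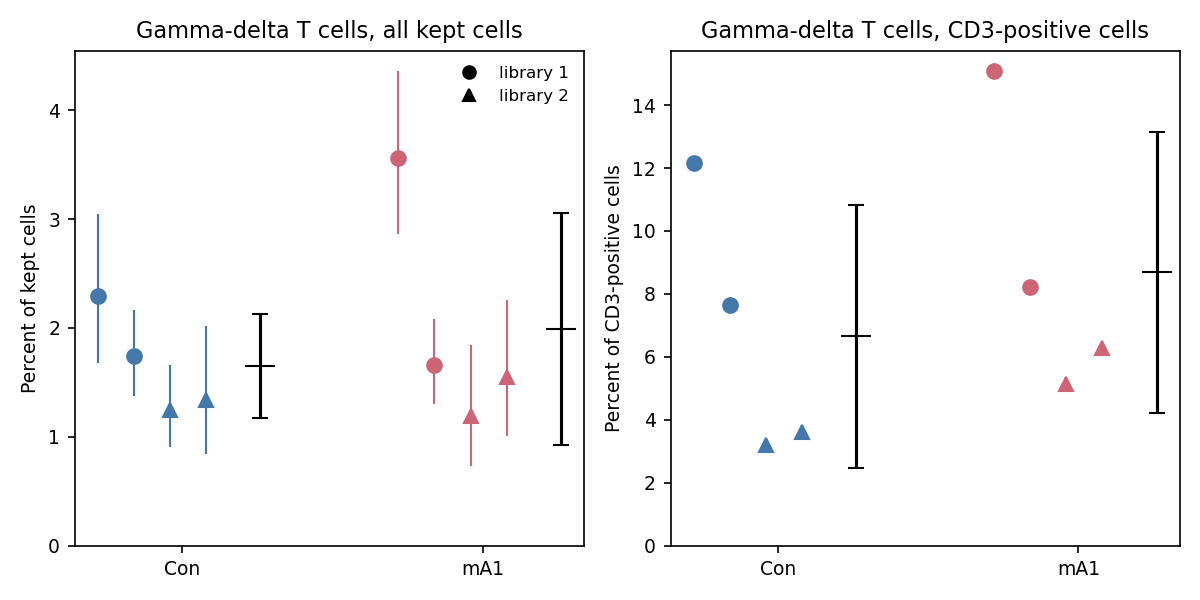
Gamma-delta T cells as percent of kept cells (left, with 95% exact binomial intervals) and of CD3-positive cells (right) in each tumour of the Con and mA1 groups. Circles are tumours of library 1 and triangles of library 2, black bars are the mean and SD of 4 tumours, and the highest value in both panels is mA1 tumour 1, at 3.56% and 15.1%.

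Between mA1 and Con, gamma-delta T cells differed in 1 gene of 2566 tested (0.039%) by edgeR at an adjusted p under 0.05, and 91 genes had an unadjusted p under 0.05. Genes of the rule were not left out of these tests. The gene was Igha, the constant region of IgA antibodies and a product of plasma cells. Its level was 139, 151, 152 and 128 CPM in Con tumours 1 to 4 and 49.1, 56.9, 10.7 and 28.2 in mA1 tumours 1 to 4. The log2 fold change was -1.74 ± 0.298 (SE; adjusted p = 0.00749), 3.35-fold lower in mA1. The same gene averaged 134 in Con and 47.6 in mA1 in alpha-beta T cells, and 155 and 59.4 in NK cells, neither of which make antibodies. Igkc, the kappa light chain gene, was 303, 331, 338 and 267 in Con and 179, 190, 53.3 and 65.8 in mA1 gamma-delta T cells and was not called. Whether free RNA of plasma cells set these values was not tested. The Igha log2 fold change, mA1 against Con, kept its direction but was not called by DESeq2 (adjusted p = 0.469), with libraries as samples (edgeR adjusted p = 0.767), without Con library 2 (0.0535), without mA1 library 2 (0.0654) or without mA1 tumour 1 (0.0659). Without Con library 1, 14 genes were called.

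The next genes by p did not pass the test (edgeR adjusted p = 1.00 for each). Socs3, a feedback inhibitor of cytokine signalling, had a log2 fold change of 1.48 ± 0.415, 5830411N06Rik 1.00 ± 0.301, Odc1 0.83 ± 0.250, Smad7, an inhibitor of TGF-beta signalling, 0.62 ± 0.199 and Rgs2 0.62 ± 0.196. 5830411N06Rik was at 85.8, 107, 124 and 32.0 CPM in Con tumours 1 to 4 and 173, 152, 320 and 150 in mA1 tumours 1 to 4. Il17a was at 363, 511, 28.6 and 10.7 in Con and 890, 1035, 277 and 113 in mA1 tumours, which overlap, with a log2 fold change of 1.31 ± 1.03 that did not pass.

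No list gene passed the test between mA1 and Con. Over the 9 lists, 88 genes were tested, 0 were called by edgeR or DESeq2 and 10 had an unadjusted p under 0.05 by edgeR. Over all genes, 91 of 2566 tested had such a p. Of 25 type 17 genes tested the median log2 fold change was 0.05, with 5830411N06Rik at an unadjusted p under 0.05. The medians were -0.56 over 6 interferon-gamma and cytotoxic genes (-1.51 to 1.06 over the alternatives), 0.35 over 10 residency genes, 0.35 over 6 activation receptors, 0.12 over 5 secreted factors, 0.24 over 8 metabolism genes, 0.15 over 4 cell cycle genes and -0.52 over 5 interferon response genes. The median over all genes tested was 0.00. Of 19 dissociation and immediate early genes 16 were positive (median 0.21), and 7 had an unadjusted p under 0.05, among them Klf4 at 0.99 and Hspa1a at 0.56. These genes are known to be induced while tissue is digested, and their part in the other values was not tested.

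The summed lists differed between libraries within each group. The type 17 list summed to 11710, 12052, 9155 and 8801 CPM in Con tumours 1 to 4 and 12557, 12246, 9139 and 11620 in mA1 tumours 1 to 4. The interferon-gamma and cytotoxic list summed to 785, 526, 3361 and 3595 in Con and 951, 1104, 1397 and 2114 in mA1 tumours. The highest values of this second list were both in Con library 2, and within each group both tumours of library 1 were lower than both of library 2. Among members with 3 or more of the 7 genes, 35.3% of the cells in Con library 2 had at least 1 of the 7 interferon genes named above, against 5.88%, 12% and 14.3% in the other libraries, and 9.80% had Il17a, against 30.3%, 27.3% and 21.4%.

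The percent of cells with a UMI was compared for 16 genes, with cells thinned to 1000 UMIs and 2 of 415 cells too shallow to enter. By exact permutation over tumours, 0 genes passed after adjustment over the 16, and 1 (Cd27) had an unadjusted p under 0.05. Cd27 was the 1 gene of 16 (6.25%) whose groups did not overlap, at 6.67%, 3.95%, 2.22% and 9.09% of cells in Con tumours 1 to 4 and 1.15%, 0%, 0% and 0% in mA1 tumours 1 to 4 (exact two-sided permutation p = 0.0286, the smallest possible; adjusted p = 0.457). Without thinning, the Cd27 groups overlapped, at 6.67%, 3.90%, 22.2% and 18.2% in Con and 5.68%, 1.39%, 15% and 3.85% in mA1 tumours. Over all members 34 Cd27 UMIs were counted, in 7.47% of cells against 4.50% of B cells, so these shares rest on few UMIs.

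Il17a was found in 20%, 13.2%, 2.22% and 0% of thinned cells in Con tumours 1 to 4 and in 17.2%, 22.2%, 15% and 11.5% in mA1 tumours 1 to 4. The difference of 7.66 percentage points did not pass (exact p = 0.229, adjusted p = 0.610), and the low tumours were those of Con library 2. Nkg7 was found in 0%, 0%, 17.8% and 13.6% in Con and 3.45%, 2.78%, 10.0% and 3.85% in mA1 tumours (adjusted p = 0.823 by exact permutation). Maf was found in 66.7%, 50%, 24.4% and 45.5% of cells in Con tumours and in 43.7% to 46.2% in mA1 tumours, a wider spread in Con that was not tested.

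**Figure D5:**
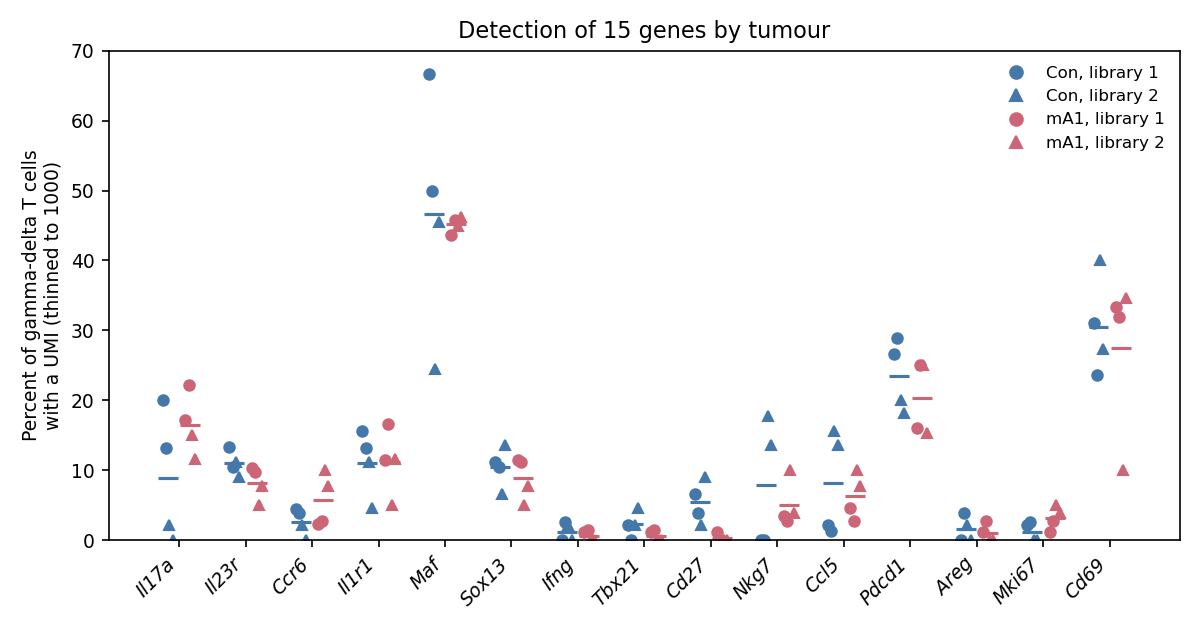
Percent of gamma-delta T cells with a UMI of 15 of the 16 genes (y axis, cells thinned to 1000 UMIs) in each tumour, with Con in blue and mA1 in red, circles for library 1, triangles for library 2 and lines for the mean of 4 tumours. Cd27 is the gene without overlap, at 2.22% to 9.09% in Con and 0% to 1.15% in mA1.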

How the data were processed

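Cells of 4 libraries (10x 3′ version 3 chemistry) were analysed from the deposited gene-by-cell count matrices. Per the submitters' processing notes, the authors made the UMI counts with Cell Ranger 6.0.1 and the mm10 build; the values are whole-number counts, not normalized. Members, comparison gates, gene lists and tests were chosen with earlier results of these data known. Hashtags were called with a 2-component Gaussian mixture on cells with at least 10 hashtag counts (scikit-learn 1.9.0), and cells with both hashtags or none were left out of the tumour sums. Scrublet (scanpy 1.11.5) called 8 members across 3 libraries; it called 0 cells in Con library 2 and was taken not to have worked there, so its calls were removed only in an alternative. Counts were summed per tumour (at least 10 cells) and the sums were compared in R 4.3.3 with edgeR 4.0.16 (scaling by TMM, filterByExpr, robust quasi-likelihood, two-sided, Benjamini-Hochberg adjustment, threshold 0.05). The SE printed with an edgeR log2 fold change is its absolute value divided by the root of the F statistic. DESeq2 1.42.0 was an alternative. Cells were thinned with numpy 2.4.6 to 1000 UMIs where detection was compared. Shares and detection were tested by exact two-sided permutation over all arrangements of the tumours. Binomial intervals were computed with scipy 1.17.1. Intervals and bounds cover counting error only, and PCR copies are removed by the UMIs.

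Genes were named by rule. Between mA1 and Con these were the called genes, or the 5 of smallest p in a direction with none, and tested list members. Between gates they were the 12 called genes of largest fold change per direction with a mean of at least 50 CPM in the higher gate, and list members; a few genes are not reported here. Tested alternatives were other gates, scalings, low-count filters, hashtag calls, mitochondrial limits, depths, blocks and left-out tumours or libraries. The 2 libraries of a group share numbers 1 and 2 with the other group; deviations of same-numbered libraries correlated at 0.270 over 2821 genes. With 2 pairs and no shared animal, litter or day in the labels, the numbers were not taken to pair the samples.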

Additional observations from a re-analysis of the deposited data

Results flagged for a closer look

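In 56 groups of 4 tumours, 5 held a tumour far from the other 3, where chance gives about 5% of groups. The cell cycle list summed to 2111 CPM in Con tumour 1, against 1109 in the next Con tumour. The residency and trafficking list summed to 4145 in mA1 tumour 2, against 2951 in the next mA1 tumour. Nkg7 was found in 10.0% of thinned cells in mA1 tumour 3, against 3.85% in the next mA1 tumour, and Cd69 in 10.0% there, against 31.9% in the nearest other. Cd27 was found in 1.15% of cells in mA1 tumour 1 and in 0 cells of the other mA1 tumours. Tumour 3 of mA1 held 20 members, so 10.0% is 2 cells.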

How the results depend on the processing

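Between mA1 and Con, where 1 gene was called, 0 were called by DESeq2 (113 at an unadjusted p under 0.05) and without Con library 2 (143), 2 without mA1 library 2, 5 without mA1 library 1, 12 without a low-count filter and 14 without Con library 1. Leaving out each tumour gave 0 to 2. A replicate block on the library number gave 2 (Igha and Igkc) and, for the share of kept cells, an exact p of 0.667; since the libraries share only a number, the block is given as a description. With it the median of the interferon-gamma and cytotoxic list was 0.03, against -0.56. The cause of these changes was not tested. Of the genes named by rule and reported, 0 of 6, 23 and 23 reversed in the 3 comparisons.

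Counts against alpha-beta T cells were 1657 without a low-count filter and 456 with cells thinned to 1000 UMIs, where fewer genes were tested, and 823 to 1068 with each tumour left out. Against NK cells they were 2331, 495 and 1049 to 1268. Without Con library 2, chosen after seeing the data, they were 944 and 1058.

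The difference in the share of kept cells was -0.0250 without Con library 2, -0.282 without mA1 library 1, 0.698 when Con library 1 and 0.955 when mA1 library 2 was left out, and -0.186 to 0.601 with each tumour left out. Of CD3-positive cells it was -1.22, -0.939, 5.29, 5.0 and -0.106 to 3.87.

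Between mA1 and Con, list medians of both signs were seen over the alternatives and left-out tumours for type 17 (-0.09 to 0.29), interferon-gamma and cytotoxic (-1.51 to 1.06), residency (-0.00091 to 0.478), activation (-0.21 to 0.49) and secreted factor genes (-0.37 to 0.22). List medians against alpha-beta T cells reversed for interferon-gamma and cytotoxic genes (0.541, CD4 cells only), activation receptors (0.889, CD8 only) and metabolism (-0.00441, CD4 only). Against NK cells they reversed for residency (-0.00388, thinned), cell cycle (-0.0575 without TMM, -0.0791 without a filter, -0.111 to 0.176 by tumour left out) and interferon response (-0.00194 to 0.446 by tumour left out).

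Detection differences (mA1 minus Con, percentage points) that changed sign without thinning were Il23r at 4.50, Maf at 0.709, Sox13 at 6.38, Ifng at 0.644, Tbx21 at 1.13 and Areg at 0.652. At 1500 UMIs they were Il23r at 0.614, Maf at 5.26, Sox13 at 0.357 and Areg at 0.769, and with the gate without 3 genes Il1r1 at -0.435. By tumour left out, the ranges were -2.10 to 2.14 for Il1r1, -8.87 to 5.20 for Maf, -5.45 to 0.473 for Nkg7, -4.20 to 0.542 for Ccl5, -1.16 to 0.241 for Areg and -5.42 to 2.78 for Cd69. With 20 to 88 members per tumour, single cells move these shares.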

Other observations

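Members with Il17a were set beside those without after thinning to 1000 UMIs (93 and 320 cells), as a description with no test. Furin was found in 20.4% and 13.4%, Odc1 in 22.6% and 15.3%, Pdcd1 in 29.0% and 19.4% and the early response gene Nr4a1 in 11.8% and 6.56%. Lif was found in 3.23% and 0.313%, and Nkg7 in 0 of 93 cells and 5.94%. Il23r was found in 10.8% and 9.38%. The cells with Il17a pool all tumours, and the 10 with most Il17a UMIs came from 2 libraries, 1 cell from Con and the others from 1 mA1 library.

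Trgv2 was found in 35.1% of the cells with Tcrg-V6 or Trdv4 and in 55.8% of those with 5830411N06Rik. Of the 163 cells with Trgv2, 66.9% had Tcrg-C2, against 29.0% of the others.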
